A study of Oryza sativa Japonica Group with 6 samples.

Results

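The genes described here are 10 nuclear genes of the photosynthetic machinery that were measured in rice roots. They comprise the light-harvesting genes LHCP and CAB2R, the photosystem I genes OSA15 (PSAG) and GOS5 (PSAH), the photosystem II gene PSB28, the electron transport genes ISP (petC), PETE and LFNR1, and the Rubisco genes RBCS1 and RCA (rcaA1). They were taken by symbol or synonym from the gene annotation, with LHCP restricted to LOC4333359, and they account for 15 of the 57194 probe sets tested and 10 of the 17905 genes with a probe set. The genes were selected on their measured intensities in −N and +N roots, which were already known, so every −N and +N value given for them is a description and no test of it is reported. OSA15 and CAB2R each had 2 probe sets, RCA had 4, and each of the other genes had 1.

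Roots were taken from rice of the japonica cultivar TNG67 at an age of 10 days, all germinated in the dark and then raised in nitrogen-replete hydroponic solution under a day and night cycle. For −N, seedlings were moved to solution without ammonium nitrate for 1 h, and +N seedlings had ammonium nitrate throughout. Each treatment had 3 replicates, called biological in the labels, with 1 GeneChip Rice Genome Array for each. Nothing in the sources says whether the replicates came from separate cultures, so the errors given below cover the spread between these samples, which may be technical. The labels have both groups moved to new solution, whereas the Methods describe the move for −N only. A label of +N replicate 3 gives 0.5 h. The word reanalysis stands in the titles of −N replicates 1 and 2.

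Light-harvesting chlorophyll a/b-binding proteins pass absorbed light energy to photosystems I and II in the thylakoid membrane. Electrons then run through the cytochrome b6f complex, plastocyanin, photosystem I and ferredoxin to NADP, and Rubisco fixes carbon dioxide in the stroma with the help of Rubisco activase. These proteins are known from green leaves, while root plastids are mostly not green and draw on imported sugar, although roots kept in light can make some chlorophyll.

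The values were linear intensities with no detection call. Array medians ran from 33.3 to 35.2, and the number of arrays limits the precision of every value. Both arrays numbered 1 stood apart from the others before any gene was considered. Over all probe sets, the deviation of −N replicate 1 from its group mean correlated with that of +N replicate 1 at 0.785, and the same-numbered arrays of replicates 2 and 3 correlated at 0.664 and 0.653. Arrays of different numbers correlated between −0.547 and 0.0846. The 3 differences between equally numbered arrays are therefore given for each of the 10 genes, together with the value left when both arrays numbered 1 are left out. Among markers of root cells, 5 of 8 were matched, and their summed intensity was 15851 to 20100.4 in −N and 16899 to 22999.8 in +N. The silicon transporter gene LSI1 made up most of this sum. Of 7 shoot lateral organ genes (the YABBY genes YAB1 to YAB6 and DL), 6 had a probe set. Their 7 probe sets summed to 85.2 to 102 in −N and 87.6 to 103 in +N, none was at 0, and all had a mean below the median of the probe sets.

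The photosynthesis genes were readily measured in these roots. Of their 15 probe sets, 14 had a mean at or above the median of all probe sets, and RBCS1 alone lay below it. All 15 had a lower mean log2 intensity in −N than in +N. Their median log2 fold change of −N over +N was −0.97, with a range of −1.41 to −0.05, while the median over all probe sets was 0.00 and the 5th and 95th percentiles were −0.35 and 0.36. In these whole roots, a lower share of cells of a type and less RNA per cell cannot be told apart. The summed intensity of the shoot organ genes, given above, overlapped between −N and +N, but their probe sets read only 4.61 to 38.9. Whether the share of green cells differed was not tested.

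The antenna gene LHCP encodes a chlorophyll a/b-binding protein of the light-harvesting complex. Its intensity was 1338, 1856 and 1733 in −N replicates 1 to 3, against 6118, 3077 and 3715 in +N replicates 1 to 3. Every −N array was below every +N array, and the lowest and the highest of the 6 values were both in arrays numbered 1. The means were 1642 ± 270.3 in −N and 4304 ± 1604 in +N (SD, n = 3 each), and the log2 fold change was −1.34 (SE 0.29). Within pairs of equal number it was −2.19, −0.73 and −1.10, and it was −0.91 without the arrays numbered 1.

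CAB2R is a second chlorophyll a/b-binding protein gene. A near-identical gene, CAB1R, had no probe set of its own, so part of the CAB2R signal can belong to it. The brighter CAB2R probe set measured 5202, 9656 and 9509.8 in −N, against 14903, 10785 and 13017 in +N, and the groups did not overlap. The −N array numbered 1 was far below the other −N arrays, and the +N arrays lay closer together. Its log2 fold change was −0.71 (SE 0.28), with −1.52, −0.16 and −0.45 in the 3 pairs. The dimmer probe set, of a class whose probes can match several genes, measured 2846, 5752 and 5863 in −N and 10796, 6909 and 10180.1 in +N. This is the same arrangement of arrays with a wider gap, a log2 fold change of −0.99 (SE 0.33) and pair differences of −1.92, −0.26 and −0.80. Without the arrays numbered 1 the 2 probe sets of CAB2R had log2 fold changes of −0.31 and −0.53.

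The 2 photosystem I genes did not look alike. GOS5 encodes subunit H, which in Arabidopsis is needed for the docking of the mobile antenna to photosystem I. Its intensity was 421, 572 and 542 in −N, against 2011, 883 and 1366 in +N, with no overlap. Its mean log2 fold change of −1.41 (SE 0.31), or 2.65-fold lower in −N, was the lowest among the 15 probe sets, and the pair differences were −2.26, −0.63 and −1.33. It was −0.98 without the arrays numbered 1.

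OSA15 encodes subunit G of photosystem I. Its brighter probe set measured 124, 122 and 86.1 in −N and 205, 111 and 79.6 in +N. Only +N replicate 1 stood above the other arrays, and the groups overlapped. The log2 fold change was −0.16 (SE 0.35), with pair differences of −0.73, 0.14 and 0.11, and it had the opposite sign without +N replicate 1 (0.22), without −N replicate 3 (0.01) and without both arrays numbered 1 (0.13). The other probe set measured 117, 95.8 and 61.5 in −N and 114, 95 and 76.3 in +N. Its log2 fold change of −0.09 (SE 0.28) likewise turned without −N replicate 3 (0.17) or +N replicate 1 (0.05). Its pair differences were 0.03, 0.01 and −0.31, and it was −0.15 without both arrays numbered 1. The direction of OSA15 therefore rested on single arrays.

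PSB28, known in cyanobacteria as an assembly factor of photosystem II, had intensities of 99.9, 154 and 100.2 in −N, against 314, 215 and 146 in +N. The groups overlapped at a single point, since −N replicate 2 was above +N replicate 3, but −N was the lower array in every pair. The log2 fold change was −0.89 (SE 0.32), the pair differences were −1.65, −0.48 and −0.54, and the value without the arrays numbered 1 was −0.51.

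The 3 electron transport genes shared an arrangement in which no −N array reached a +N array. ISP encodes the Rieske iron-sulfur protein of the cytochrome b6f complex. It measured 525, 779 and 614 in −N, against 1754, 891 and 1183 in +N, and its log2 fold change was −0.96 (SE 0.29). In pair 2 the values of ISP were close, with a difference of −0.19, against −1.74 in pair 1 and −0.95 in pair 3.

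PETE encodes plastocyanin, the copper protein that carries electrons to photosystem I. Its intensity was 3109.9, 4788 and 4327 in −N, against 9241, 6262 and 7330.1 in +N. All −N arrays were below all +N arrays, the log2 fold change was −0.91 (SE 0.24), and the pairs gave −1.57, −0.39 and −0.76. Both ISP and PETE had a log2 fold change of −0.57 without the arrays numbered 1.

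LFNR1 encodes the leaf form of ferredoxin-NADP reductase, which hands electrons from ferredoxin to NADP. It measured 68.2, 113 and 100.1 in −N, against 337, 147 and 218 in +N, and here too +N replicate 1 was the highest array and −N replicate 1 the lowest. The log2 fold change was −1.27 (SE 0.33), with −2.30, −0.39 and −1.12 in the pairs and −0.75 without the arrays numbered 1.

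A different ferredoxin-NADP reductase gene, FNR (LOC4334338), is not among the 10 genes and gives a contrast within the same enzyme family. Its intensity was 3027, 2571 and 2867 in −N, against 7323, 9129 and 7281 in +N. These groups were far apart with little spread, and the largest difference was in pair 2 (−1.83), against −1.27 in pair 1 and −1.34 in pair 3. FNR had a log2 fold change of −1.48 (SE 0.19) with an adjusted p of 0.0997 in limma, and it passed the threshold of 0.05 in the fit with a replicate block (adjusted p = 0.0112). A further gene annotated FNR (LOC4342399) had log2 fold changes of −0.21 (SE 0.18) and 0.04 (SE 0.29) in its 2 probe sets.

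Of the Rubisco genes, RBCS1 was at the dim end of the arrays and RCA varied widely between +N replicates. RBCS1, a small subunit gene of Rubisco, measured 5.48, 5.10 and 5.34 in −N and 6.06, 5.15 and 5.34 in +N. These values were below the 10th percentile of every array, which ran from 7.43 to 8.20, so that a difference in RBCS1 was not detectable on these arrays. Its log2 fold change of −0.05 (SE 0.17) was 0.02 without +N replicate 1 and −0.01 without both arrays numbered 1, and the pairs gave −0.14, −0.01 and 0.00.

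RCA encodes Rubisco activase, which frees Rubisco from inhibitory sugar phosphates. Its brightest probe set measured 739.7, 838 and 421 in −N, against 3457, 845 and 666 in +N. Only +N replicate 1 stood far above the rest, and the other 5 arrays overlapped between the groups. The means were 666 ± 218 in −N and 1656 ± 1562 in +N (SD, n = 3 each). The other RCA probe sets had the same arrangement, since the highest of the 3 +N arrays was 5.04 to 5.98 times the lowest over the 4 probe sets, whereas the −N arrays spanned 1.69 to 2.60 times. The log2 fold changes of the 4 probe sets were −1.26, −0.99, −1.08 and −0.97 (SE 0.60 to 0.63). In pair 1 the 4 differences lay between −2.51 and −2.22, and in pair 3 between −0.93 and −0.56. Pair 2 gave −0.59, 0.27, −0.37 and −0.01, so that 1 of the 4 was higher in −N. Without +N replicate 1 the log2 fold changes were −0.48, −0.24, −0.35 and −0.23, and without both arrays numbered 1 they were −0.64, −0.33, −0.47 and −0.34. Some probes of these sets can match other transcripts.

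**Figure D1:**
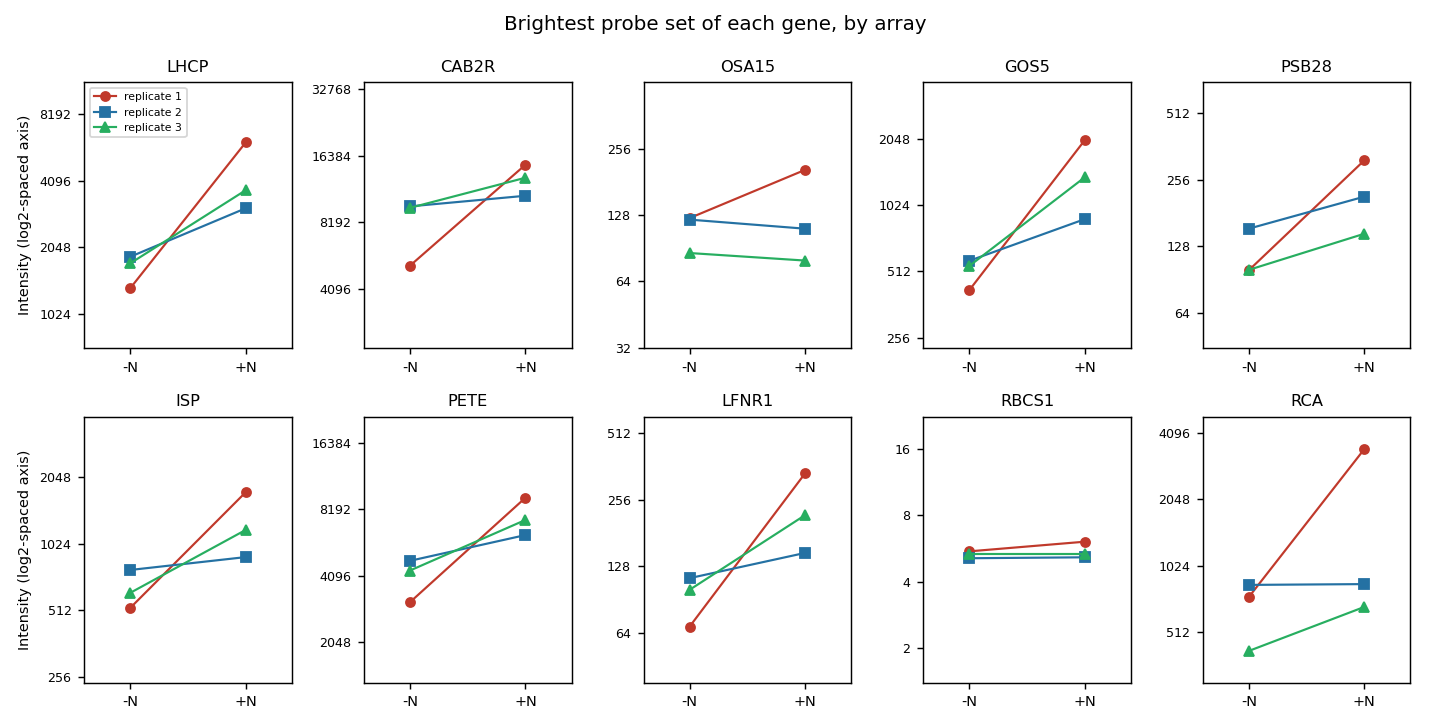
Linear intensity (log2-spaced axis) of the brightest probe set of each of the 10 genes in −N and +N roots, with 1 point per array and a line between arrays of equal replicate number. In all 10 genes the +N array numbered 1 is the highest of the 6, and the lines of LHCP, GOS5, ISP, PETE and LFNR1 run lower in −N in every pair.

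Counted by probe set, 5 of the 15 were at least 2-fold lower in −N (0.684% of all probe sets were), and 0 were at least 2-fold higher (0.365% of all). These 5 belonged to LHCP, GOS5, LFNR1 and RCA. Their number was 2 without +N replicate 1, 11 without −N replicate 2, 10 without +N replicate 2 and 8 without +N replicate 3. In 7 of the 15, from 6 genes, all −N arrays were below all +N arrays (3.36% of all), and in 0 were they all above (2.53% of all). In 11 of the 15 the −N array was the lower in all 3 pairs (15.0% of all), and 7 of the 10 genes had this in every probe set. Because these values chose the genes, nothing is read from the shares. By limma, the fit over all probe sets called 4 probe sets lower (0.00699%) and 0 higher at an adjusted p under 0.05, and 1005 (1.76%) lower and 740 (1.29%) higher at an unadjusted p under 0.05. In the blocked fit, 225 probe sets (0.393%) were called lower and 190 (0.332%) higher. These calls are given as the background for the other genes below.

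The size of the difference depended on the pair of arrays. The median log2 difference of the 15 probe sets was −1.92 in pair 1, −0.26 in pair 2 and −0.69 in pair 3, an SD of 0.86 over the pairs, while the medians over all probe sets were 0.03, 0.00 and −0.03. A difference of at least 2-fold was found in 12 of the 15 in pair 1 (1.87% of all probe sets), in 0 in pair 2 (0.953%) and in 3 in pair 3 (0.601%). The lowest of the 3 differences was that of pair 1 in 14 of the 15 (32.8% of all), with the second probe set of OSA15 as the exception. In 13 of the 15 the differences, lowest first, were in the order of pair 1, pair 3 and pair 2 (17.5% of all). Of the 28597 probe sets with a mean at or above the median, pair 1 was the lowest in 11527, and 6077 had this order. Without both arrays numbered 1 the median log2 fold change was −0.51, and 0 of the 15 were at least 2-fold lower, against 284 of all probe sets (0.497%).

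The arrays behind this order were on both sides of the comparison. The +N array numbered 1 was the highest of the 6 in 14 of the 15 probe sets (14.4% of all), and the −N array numbered 1 was the lowest of the 6 in 8 (22.5% of all). Of the 28597 probe sets with a mean at or above the median, 2952 had the first arrangement and 9689 the second. Among the 14 photosynthesis probe sets at that level, these counts were 13 and 8. Relative to their group means, the 15 probe sets had a median log2 deviation of −0.21, 0.30 and −0.04 in −N replicates 1 to 3, and of 0.57, −0.40 and −0.15 in +N replicates 1 to 3. Over all 57194 probe sets, the 2 arrays numbered 1 deviated in opposite directions in 11664, and 8.85% of all were below the group mean in −N replicate 1 and above it in +N replicate 1. Among the photosynthesis genes, 8 of the 15 probe sets (53.3%) were arranged so. What sets these arrays apart was not tested.

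**Figure D2:**
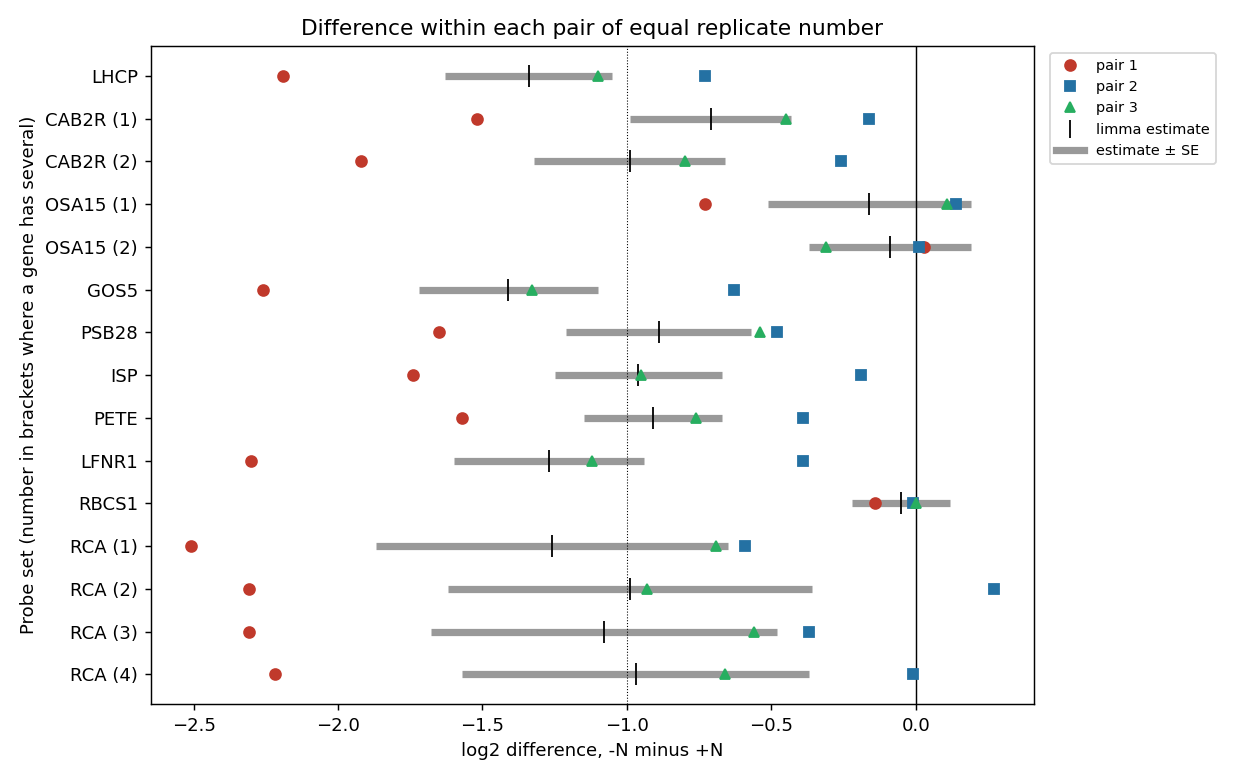
Log2 difference of −N minus +N in each pair of equal replicate number (coloured points) for the 15 probe sets, with the limma estimate (black tick) and its SE (grey bar), a solid line at no difference and a dotted line where −N is 2-fold lower. The points of pair 1 lie farthest left in 14 of the 15 rows, and no point of pair 2 reaches the dotted line.

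The photosynthesis genes varied together over the 6 arrays. Between the brightest probe sets of the 10 genes, the 45 correlations of log2 intensity had a median r of 0.78, from 0.15 to 0.99, and a median of 0.69 once the group means were taken off. Without RBCS1 and OSA15 the 28 correlations had a median r of 0.88, from 0.48 to 0.99, and of 0.74 without the group means. These correlations describe 6 arrays that share preparation and scaling, and the genes are not independent of each other. The genes were chosen on these intensities, and no correlations between other genes were computed as a background. The mean of the standardised log2 values of the 10 genes was −0.88, −0.32 and −0.67 in −N, against 1.55, 0.08 and 0.25 in +N, so that +N replicate 1 stood alone at the top and +N replicate 2 was close to the average of all arrays.

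Among 2051 other named genes at or above the median level, the 5 whose pattern over the 6 arrays was most like this mean were DJA6 (r = 0.995), OsTrxm5 (0.995), OsPEX11-1 (0.991), OsPEX11-4 (0.986) and ADI1 (0.981). DJA6 belongs to the DnaJ chaperone family, OsTrxm5 encodes an m-type thioredoxin, the PEX11 family controls the division of peroxisomes, and ADI1 carries ferredoxin as a synonym. ADI1 measured 489, 909 and 621 in −N, against 2881, 1316 and 1399 in +N, and its log2 fold change was −1.42 (SE 0.36), or −0.85 without the arrays numbered 1. OsPEX11-4 measured 66.4, 90.7 and 57.1 in −N, against 361, 134 and 138 in +N, with −1.43 (SE 0.40), or −0.92 without those arrays. DJA6, OsTrxm5 and OsPEX11-1 had −0.64, −0.90 and −1.05, and none of the 5 passed in limma (adjusted p from 0.715 to 1). Each gene is given by its best-correlated probe set, which in OsTrxm5 is not the brightest of the gene. The probes of OsTrxm5 and ADI1 can match other transcripts. The 5 were chosen for a pattern lower in −N, so their fall in −N followed from the choice and is a description.

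Few other photosynthesis genes could be named on the array. Their list and those below were written with earlier results of these data known, and several probe sets share a gene. Their counts are therefore a description. Of 134 further symbols searched, 15 genes were matched and 9 had a probe set, 18 in all. Their median log2 fold change was −0.49, against 0.00 over all probe sets. Of the 18, 0 passed at an adjusted p under 0.05 in limma, with or without the block, while 7 were lower (1.76% of all probe sets) and 0 higher (1.29%) at an unadjusted p under 0.05. In 5 of them −N was at least 2-fold lower (0.684% of all), in 8 all −N arrays were below all +N arrays (3.36%), and in 12 the −N array was lower in all 3 pairs (15.0%). Their median in pairs 1, 2 and 3 was −0.99, −0.17 and −0.44, the same order as in the 10 genes, and it was −0.27 without both arrays numbered 1.

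The lowest of these 18 belonged to ALDP, the chloroplast aldolase of the Calvin cycle. This probe set measured 561, 644 and 505 in −N, against 3816, 1074 and 1097 in +N, with −1.54 on the log2 scale (SE 0.47, adjusted p = 0.963 in limma) and pair differences of −2.77, −0.74 and −1.12, and with −0.93 without both arrays numbered 1. As in RCA, +N replicate 1 was far above the other 5 arrays. The brightest ALDP probe set had −1.44, or −0.87 without both arrays numbered 1. A dim ALDP probe set, between 5.42 and 14.6, had −0.46. The small subunit gene RBCS (LOC4351966) had 4 probe sets, and its brightest measured 846, 935 and 587 in −N, against 3407, 1229 and 1497 in +N, and its log2 fold change was −1.25 (SE 0.39), or −0.87 without both arrays numbered 1. The pairs gave −2.01, −0.39 and −1.35. Of the other 3 probe sets, those at −1.07 and −0.29 measured at least 109 on every array, while that at 0.11 was as dim as the 10th percentile of the arrays, between 7.12 and 9.70. Since Rubisco small subunit genes are much alike, signals of probes that match several of them are uncertain.

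OEE3, a protein of the oxygen-evolving complex of photosystem II, measured 993, 2087 and 2071 in −N, against 4081, 2923 and 4407 in +N. Here −N replicate 1 was the array that stood apart, the −N over +N difference was −1.20 on the log2 scale (SE 0.33, adjusted p = 0.833), and the pairs gave −2.04, −0.49 and −1.09. It was −0.79 without both arrays numbered 1. FBP1, a fructose-bisphosphatase, had −0.94 and −0.67, or −0.26 and −0.44 without both arrays numbered 1. NDHM of the chloroplast NADH dehydrogenase-like complex had −0.63, or −0.37 without those arrays. THF1, a thylakoid formation gene, had −0.52 and −0.46, or −0.37 and −0.21 without those arrays. The dimmest THF1 probe set, at 0.03, read only 6.07 to 8.42. At the upper end were the aldolase gene FBA1 (0.11) and the triose phosphate isomerase gene TPI (−0.05 and −0.11). Matching by symbol does not show whether FBA1 and TPI encode chloroplast or cytosolic forms, so they may not be photosynthesis genes.

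Genes of chlorophyll synthesis, which supplies the pigment of the antenna proteins, were listed together with 3 genes of chlorophyll breakdown. Of 25 symbols searched for this list, 15 genes were matched and 13 had a probe set. The 10 synthesis genes had 12 probe sets with a median log2 fold change of −0.28. Of these, 0 passed in limma, with 3 lower (1.76% of all probe sets) and 0 higher (1.29%) at an unadjusted p under 0.05. PORB, a light-dependent protochlorophyllide reductase, was arranged like LHCP and GOS5. It measured 158, 337 and 314 in −N, against 832, 489 and 726 in +N, and its difference was −1.38 on the log2 scale (SE 0.34, adjusted p = 0.681), or −0.87 without both arrays numbered 1. The related PORA differed more evenly between the pairs (−1.47, −1.18 and −0.82) and passed with the block alone (log2 fold change −1.15, adjusted p = 1, and 0.0271 with the block). CHLH, a subunit of magnesium chelatase, had −1.25 in its brighter probe set, which read 69.9 to 355, or −0.71 without both arrays numbered 1. Its other probe set, at 0.14, read only 27.8 to 39.3. The breakdown genes had 5 probe sets with a median of 0.04, of which 0 passed in limma. At an unadjusted p under 0.05, 1 of the 5 was lower (1.76% of all probe sets) and 0 were higher (1.29%). NYC1 (0.14) and SGR (0.12 and 0.04) were at the upper end, and NOL had −0.49 and −0.43, lower in −N in all 3 pairs in both probe sets. The probe set lower at an unadjusted p was that of NOL at −0.49, in which all −N arrays were below all +N arrays.

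Of 18 symbols searched for regulators of chloroplast genes, 5 genes were matched, so the other regulators are not covered here. The 9 probe sets of these 5 genes had a median log2 fold change of −0.05, and 0 passed in limma at either an adjusted or an unadjusted p under 0.05. GLK1, a transcription factor that activates photosynthesis genes, measured 95.7, 237 and 142 in −N, against 267, 202 and 203 in +N. Only −N replicates 1 and 3 were below the +N arrays, and the log2 fold change was −0.59 (SE 0.33), with −1.48, 0.23 and −0.51 in the pairs and −0.14 without both arrays numbered 1. Its relative GLK2 had values between −0.15 and 0.18 in 4 probe sets, all between 5.28 and 21.4 in intensity and so below the median of every array. Of the 4, 2 lay at about the 10th percentile or below it. Without GLK2 the median of the other 5 probe sets was −0.11. The phytochrome genes PHYA, PHYB and PHYC had values between −0.21 and 0.04.

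**Figure D3:**
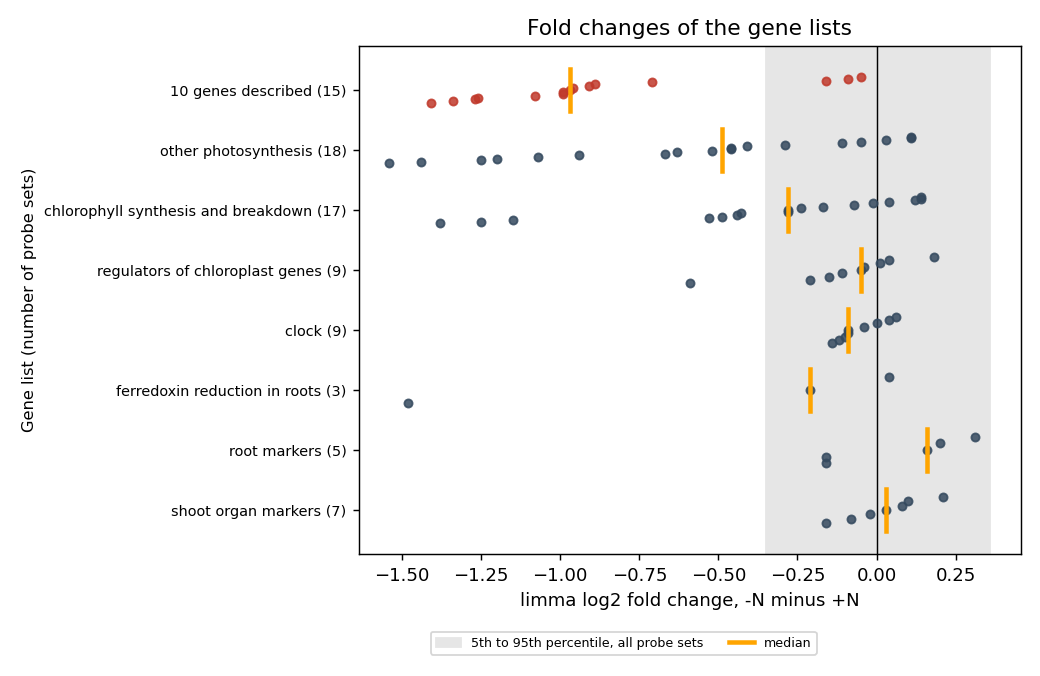
Limma log2 fold change of −N over +N for each probe set of the 10 genes and of 7 other gene lists, with the number of probe sets in brackets, the median of each list (orange) and the 5th to 95th percentile of all probe sets (grey). The 10 genes have a median of −0.97, the other photosynthesis genes −0.49 and the chlorophyll synthesis and breakdown genes −0.28, while the medians of the other 5 lists lie between −0.21 and 0.16.

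Many photosynthesis genes in leaves follow the time of day, and no source gives the hour of harvest, so clock genes were set beside them. Of 15 clock symbols searched, 7 genes were matched and 6 had a probe set. The median log2 fold change of their 9 probe sets was −0.09, from −0.14 to 0.06, and 0 had an unadjusted p under 0.05. The brighter probe set of LHY, a morning gene, measured 846, 780.0 and 244 in −N and 955, 726 and 214 in +N, and the evening gene PRR1 measured 130.1, 366 and 499 in −N and 152, 370.4 and 512 in +N. In both of these genes the arrays of equal number were close to each other, while replicate 3 was far below the others in LHY and replicate 1 in PRR1. Other clock genes were less even within a pair. PRR95 measured 243, 882 and 1106 in −N and 387, 659 and 1133 in +N, and the brighter probe set of PRR73 had pair differences of −0.40, 0.26 and −0.27. Over the 9 probe sets the differences ran from −0.67 to 0.36 in pair 1, from −0.26 to 0.42 in pair 2 and from −0.38 to 0.19 in pair 3. The +N array numbered 1 was the highest of the 6 in 1 of the 9 clock probe sets and in 14 of the 15 photosynthesis probe sets (14.4% of all). The −N array numbered 1 was the lowest of the 6 in 5 of the 9 and in 8 of the 15 (22.5% of all). Whether the clock values bear on the photosynthesis genes was not tested.

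**Figure D4:**
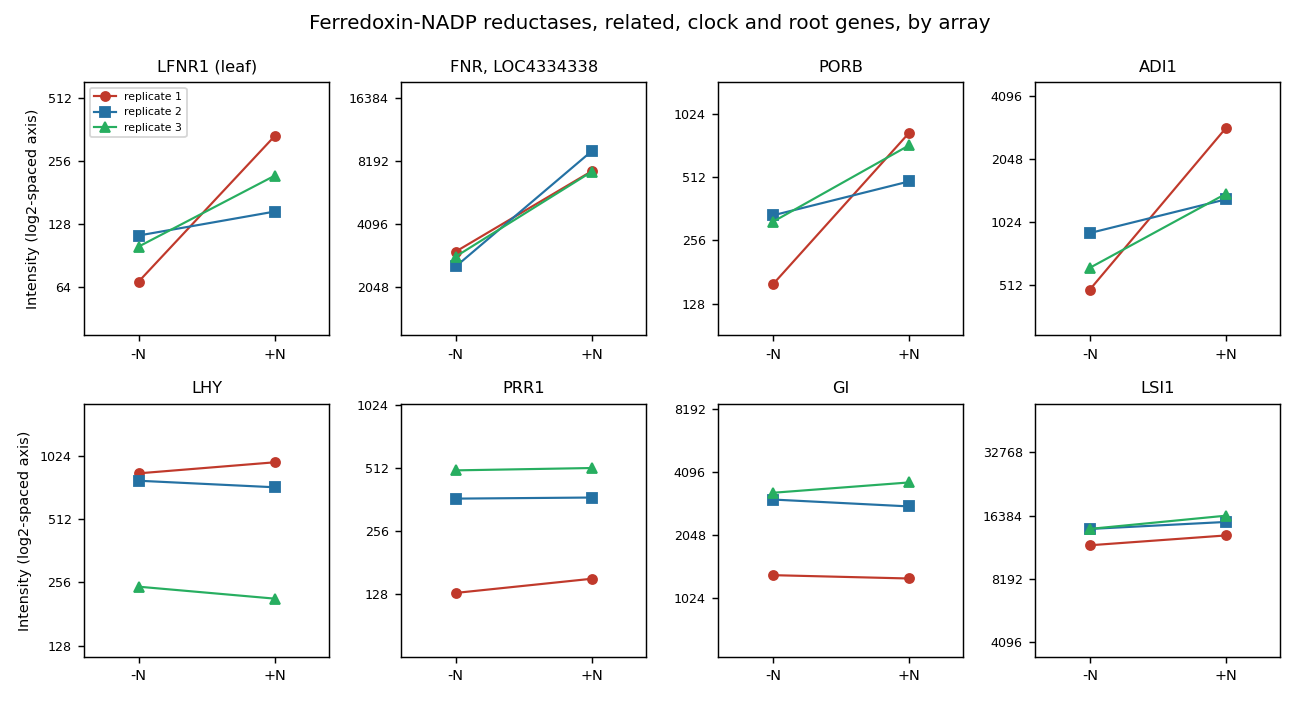
Linear intensity (log2-spaced axis) of LFNR1, FNR, PORB, ADI1, 3 of the 6 clock genes (LHY, PRR1 and GI) and the root marker LSI1 in −N and +N roots, with 1 point per array and a line between arrays of equal replicate number. LFNR1, PORB and ADI1 show the steepest line in pair 1 and FNR in pair 2, while the lines of LHY, PRR1 and GI are nearly level and separate by replicate number.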

How the data were processed

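Root RNA of 6 samples was hybridised to GeneChip Rice Genome Arrays. The authors deposited a linear intensity for each probe set on each array. GCOS and RMA are named in the submitters' processing notes, and their versions and order were not given in the sources used here. Since a test on log2 values had been planned, intensities were taken to log2 with no pseudocount. Of 57381 probe sets, 187 controls were left out and 22436 had 1 gene symbol from the platform annotation, with synonyms from RefSeq names of assembly ASM3414082v1. The genes and all lists were chosen with earlier results of these data known. One list symbol that matched another gene was dropped.

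All 57194 probe sets were fitted with limma 3.58.1 in R 4.3.3, −N minus +N, two-sided, with Benjamini-Hochberg adjustment and a threshold of 0.05, without a filter on dim probe sets. The code of the fit was run on data simulated from these arrays, where only the slope of its estimates was required to be right. No result here rests on that run. SDs are of linear intensities and SEs of limma's log2 fold change. The replicate numbers pair the samples by the correlations given in the report, which come from the data, because the sources do not say what a number marks. Alternatives were the replicate block, quantile normalization, median centring, a pseudocount of 16, leaving out dim probe sets, 1 value per gene, and leaving out each array or, chosen after seeing the data, both arrays numbered 1. Named genes were all 10, up to 3 at each end of every list, any gene past the threshold and the 5 most alike.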

Additional observations from a re-analysis of the deposited data

How the results depend on the processing

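Across all probe sets, 4 passed at an adjusted p under 0.05 in limma. With the replicate block 415 passed (225 lower and 190 higher), 10 with quantile normalization, 2 with median centring, 19 with 1 probe set per gene (15 lower and 4 higher), 16 with the mean of the probe sets per gene (12 lower and 4 higher), and 0 without both arrays numbered 1. Leaving out a single array gave 0 to 2, with 1284 to 2708 at an unadjusted p under 0.05. Among the listed genes outside the 10, the replicate block changed the calls of FNR and PORA and no other. The number of the 15 probe sets of the photosynthesis genes that were at least 2-fold lower in −N was 5. It was 3 of 10 with 1 probe set per gene, 0 without both arrays numbered 1, and 2 to 11 when a single array was left out. It was lowest without +N replicate 1, highest without −N replicate 2, 10 without +N replicate 2 and 8 without +N replicate 3. Probe sets whose groups did not overlap numbered 7, and 7 to 11 without a single array (11 without +N replicate 3). The median log2 fold change of the 15 was −0.97. It was −0.60 to −1.20 without a single array, −0.51 without both arrays numbered 1, and −0.93 to −0.98 under the other settings. That of the other photosynthesis genes was −0.49, and −0.27 to −0.63 without a single array, with 0 past the threshold under every setting run. Their median was −0.63 with dim probe sets left out and with either form of 1 value per gene. It was −0.27 without both arrays numbered 1, and −0.44 to −0.50 under the other settings. The sign turned for OSA15 without −N replicate 3 (0.01 and 0.17 in its 2 probe sets), without +N replicate 1 (0.22 and 0.05) and, in the brighter probe set, without both arrays numbered 1 (0.13), and for RBCS1 without +N replicate 1 (0.02), and the cause was not tested. Without a single array the log2 fold changes ran from −0.47 to 0.22 and from −0.29 to 0.17 in OSA15, and from −0.10 to 0.02 in RBCS1. RBCS1 was too dim on these arrays for a difference to be measured.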
